A study of Mus musculus with 28 samples.

Results

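The genes described are 10 selenoprotein genes, Selenop, Selenos, Selenof, Selenok, Selenot, Selenom, Selenow, Gpx1, Gpx3 and Gpx4, out of 24 mouse selenoprotein genes examined and 35928 gene symbols in the transcript tables. They were chosen by their measured expression in the A3B and control livers and pancreases of these same samples. Their differences between A3B and control in those tissues, and between the tissues in that respect, are therefore given as a description, with no test. The lists of other genes were also drawn up with earlier results of these data known. Their adjusted p-values are therefore not those of lists fixed beforehand.

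The study induced the human DNA cytosine deaminase APOBEC3B (A3B) in mice and measured RNA in their tissues. A3B mice carried A3B fused to turbo GFP behind a TetO promoter at the Col1a1 locus together with the CAGs-rtTA3 activator, which is meant to act in most cells. Control mice by title were labelled with the A3B transgene alone in most cases. The labels and the study's methods give doxycycline food for all mice, controls included, whereas a figure legend of the study describes the control animals of its liver and pancreas analysis as without doxycycline, so the treatment of the set 2 controls is unclear. Set 2, with a label of 10 days of treatment, held 6 A3B livers (mice 44, 48, 49, 125, 137 and 153), 6 A3B pancreases (mice 44, 49, 53, 125, 137 and 153) and the liver and pancreas of control mice 45 and 168. Set 1 held 3 A3B livers (mice 23, 28 and 70), 3 control livers (11, 91 and 92), 3 A3B lungs (69, 70 and 74) and 3 control lungs (87, 88 and 91). Some labels conflict. The genotype fields of A3B pancreases 44 and 137 give A3B alone, those of control pancreases 45 and 168 and of control liver 11 of set 1 give both transgenes, and that of control lung 87 gives CAGs alone. The groups follow the titles throughout. In set 1 the treatment label was 15 days for all 6 controls, 14 days for A3B livers 23 and 28 and 10 days for A3B liver 70 and the A3B lungs, so treatment time and genotype cannot be told apart there.

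Selenoproteins carry selenocysteine, a selenium analogue of cysteine that is inserted at a UGA codon which would otherwise end translation. Insertion needs a hairpin in the 3′ UTR of the mRNA, the protein SECISBP2 that binds it, the elongation factor EEFSEC and a dedicated tRNA that is charged by SEPHS2, PSTK and SEPSECS. The liver is the main source of plasma selenoprotein P, which carries selenium to other organs, and the exocrine pancreas depends on the endoplasmic reticulum machinery in which several other selenoproteins work.

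The codon that defines the family is shown for each member, since it is the feature that the members share. The sequences are from GENCODE M21 transcripts on GRCm38, 12 bases on each side of the first selenocysteine codon, 5′ to 3′ on the transcript, with that codon in capitals. Among the members in the secretory pathway or secreted from cells, the codons of Selenop (chr15:3274848-3274850, plus strand, exon 2 of 5), Selenos (chr7:66088844-66088846, plus, exon 6 of 6), Selenof (chr3:144590645-144590647, plus, exon 3 of 5), Selenok (chr14:29973440-29973442, plus, exon 4 of 5), Selenot (chr3:58585238-58585240, plus, exon 2 of 6), Selenom (chr11:3516273-3516275, plus, exon 2 of 5) and Gpx3 (chr11:54907256-54907258, plus, exon 2 of 5) read:
Selenop: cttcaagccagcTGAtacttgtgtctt
Selenos: tcatctggcggcTGAaactaagactct
Selenof: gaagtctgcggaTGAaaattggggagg
Selenok: atggctggtggaTGAggaaggtaaatg
Selenot: atttgtgtatccTGAgggtaccggcgg
Selenom: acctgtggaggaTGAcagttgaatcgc
Gpx3: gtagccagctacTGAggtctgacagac

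The codons of Selenow (chr7:15920464-15920466, minus strand, exon 2 of 6), Gpx1 (chr9:108339451-108339453, plus, exon 1 of 2) and Gpx4 (chr10:80054737-80054739, plus, exon 3 of 7) read:
Selenow: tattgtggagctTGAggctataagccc
Gpx1: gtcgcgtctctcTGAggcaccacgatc
Gpx4: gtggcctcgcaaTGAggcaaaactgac

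Selenop was the only member with more than 1 such codon, with 10, the first at codon 59 and the last at codon 377 of 380. In Selenos and Selenok the codon stood at the end of the reading frame, at codon 189 of 190 and 92 of 94. In Selenot, Selenom and Selenow a cysteine codon stood 3 codons before it, and in Selenof 2 codons before it. In 8 of 10 members the codon lay more than 50 bases before the last exon junction, and the exceptions were Selenos, where it was in the last exon, and Selenok, where it was 5 bases before the junction.

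The libraries of set 2 held 65161064 to 118976013 estimated counts, and the members had between 89 (Selenom in an A3B liver) and 589212 (Selenop in a control liver) estimated counts per sample, so counting error was small against the spread between mice. Set 1 was deposited as TPM only, so its depth is unknown. In set 1, the transgene was at 705 to 1705 TPM in A3B livers and 90.6 to 281 TPM in A3B lungs, and at 0.0928 to 0.526 TPM in the controls. In the tables of set 2 the transgene was not identified and its level is not analysed here. A3B livers 48 and 49 stood apart from the other A3B livers, with the lowest and the highest Selenop and Gpx1 levels, and the liver values of members and of called genes are given with and without them. These are extremes of the members' own values, and leaving out extremes narrows the spread by itself. Nothing is read from the smaller SE or the added member calls without these livers. Summed hepatocyte markers (10 genes) were at 34444 TPM in liver 49 and 47987 TPM in liver 48, against 68053 to 83685 TPM in the other A3B livers and 94967 and 144130 TPM in the control livers. In bulk tissue, fewer cells of a type and less RNA per cell cannot be told apart.

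**Figure D1:**
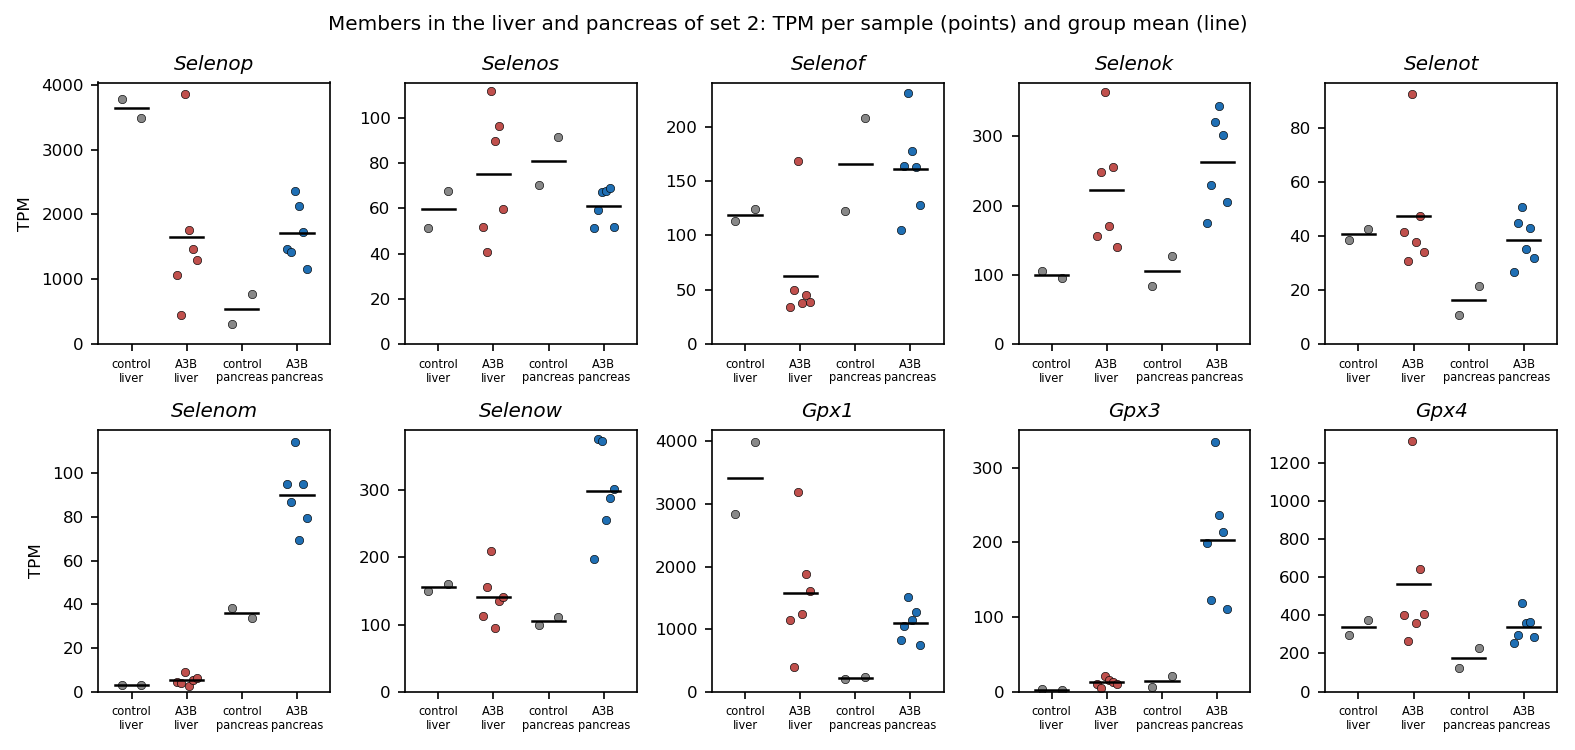
Level of each member in TPM (linear axis from 0, 1 panel per gene) in every liver and pancreas of set 2, with points for mice and a line at the group mean, for 2 control and 6 A3B samples per tissue. Selenop and Gpx1 lie lower in A3B livers other than mouse 49, and 8 members lie higher in all A3B pancreases than in both control pancreases, while Selenos lies lower in all of them.

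In control livers Selenop and Gpx1 were the most abundant of the members. Selenop was at 3782 and 3486 TPM and Gpx1, the cytosolic glutathione peroxidase, at 2840 and 3994 TPM, and their ranges overlapped. Together they made up 89.7% and 89.6% of the summed TPM of the 10 members in controls 45 and 168, and 75.9% and 77.9% of that of all 24 selenoproteins. Among the members Gpx4, which reduces lipid hydroperoxides in membranes, came next at 297 and 376 TPM, below Sephs2 (509 and 525 TPM) and Msrb1 (455 and 542 TPM) of the other selenoproteins, followed by Selenow at 151 and 160 TPM, without overlap at either step. Selenof (113 and 125 TPM) and Selenok (106 and 95.4 TPM) did not overlap, Selenos (51.4 and 67.8 TPM) and Selenot (38.5 and 42.5 TPM) followed, and Selenom (2.94 and 2.92 TPM) and Gpx3 (3.04 and 2.26 TPM) overlapped at the bottom of the order.

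In A3B livers Selenop was at 1059 TPM in mouse 44, 445 in mouse 48, 3858 in mouse 49, 1757 in mouse 125, 1461 in mouse 137 and 1304 in mouse 153. Gpx1 was at 1152, 399, 3188, 1245, 1886 and 1609 TPM in the same order. Both were below the 2 controls in 5 of 6 A3B livers, with mouse 49 the exception. After TMM scaling, which sets library sizes so that most genes do not change, the log2 fold change of the estimated counts between A3B and control was -1.55 ± 0.62 (SE) for Selenop and -1.52 ± 0.56 for Gpx1. Without livers 48 and 49, a choice made after seeing the data, the values were -1.85 ± 0.36 and -1.68 ± 0.37. Summed erythroid markers (6 genes, 5 tested, 1 called lower) were also lower in all A3B livers, at 124 to 802 TPM against 4351 TPM in control 45 and 1326 TPM in control 168, and summed hepatocyte markers (given above) were lower in all of them too. The part of either in the result was not tested.

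Selenof, which binds the folding sensor UGGT in the endoplasmic reticulum, also had a lower mean in A3B livers. Its lowest, median and highest levels there were 34.1, 42.0 and 169 TPM against 113 and 125 TPM in controls, and again mouse 49 alone was above the controls. The log2 fold change was -1.30 ± 0.58, and -2.12 ± 0.26 without livers 48 and 49.

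Gpx3, the plasma glutathione peroxidase, went the other way. It was at 10.2, 5.51, 20.7, 15.9, 12.9 and 9.60 TPM in A3B livers 44, 48, 49, 125, 137 and 153, all above the controls at 3.04 and 2.26 TPM. The log2 fold change was 1.90 ± 0.49, and 1.78 ± 0.37 without livers 48 and 49. Summed adipocyte markers (6 genes, 5 tested, none called, Lep at 0 in every liver) moved with it, at 17.5 and 11.3 TPM in controls and 27.1 to 265 TPM in A3B livers, with liver 49 highest in both. Their part in the result was not tested. Selenok, a membrane protein of the endoplasmic reticulum that is needed for protein palmitoylation by ZDHHC6, was at 140 to 364 TPM in A3B livers with a median of 210 TPM, all above the controls on the TPM scale, with a log2 fold change of 0.82 ± 0.46. After TMM scaling its groups overlapped, and without livers 48 and 49 the value was 0.34 ± 0.33.

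The other members overlapped between A3B and control livers on the TPM scale. Selenos, which anchors the VCP complex at the endoplasmic reticulum, was at 40.9 to 112 TPM (median 74.8) against 51.4 and 67.8 TPM, with a log2 fold change of -0.04 ± 0.41. Gpx4 was at 265 to 1312 TPM (median 403), with a log2 fold change of 0.32 ± 0.59 that was -0.07 ± 0.36 without livers 48 and 49. Selenot, Selenow and Selenom had log2 fold changes of -0.43 ± 0.41, -0.47 ± 0.35 and 0.51 ± 0.55. Without livers 48 and 49 Selenos, Selenot, Selenow and Selenom were at -0.15 ± 0.39, -0.90 ± 0.21, -0.85 ± 0.25 and 0.18 ± 0.43. With library totals in place of TMM, Selenos, Selenot and Selenow turned to 0.42, 0.07 and 0.01.

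In edgeR's quasi-likelihood fit over 17376 genes, 1.25% of all genes were called higher and 2.41% lower in A3B livers at an adjusted p under 0.05, and no member was among them. With DESeq2, 1 member passed, against 13.1% of the genes with an adjusted p, and at an unadjusted p under 0.05 in edgeR there were 4, against 22.9% of all genes. With library totals 1 member was called higher and none lower, against 5.05% and 1.39% of all genes. Without livers 48 and 49, 1 member (Gpx3) passed higher and 5 (Selenop, Selenof, Selenot, Selenow and Gpx1) passed lower, against 8.73% and 9.64% of all genes in that fit. By TPM, 2 of 10 members were higher in all A3B livers than in both controls, against 24.3% of all genes, and none was lower in all, against 5.42%. After TMM scaling 1 member was higher in all A3B livers and 2 (Selenop and Gpx1) were lower in all, against 15% and 12.9% of all genes. The median log2 fold change was -0.24 over the members and 0.21 over all genes. Since these contrasts chose the members, nothing is read from these shares.

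Transcript usage in liver set mouse 48 apart. The transcript Selenop-201 held 43.8% of Selenop TPM there and 0.435% to 1.13% in the other 7 livers, and Selenof-202 held 48.3% of Selenof TPM there and at most 5.54% elsewhere. Gpx1-202 held 0.129% of Gpx1 TPM in that liver and 12.3% to 25.0% in the others. A different pattern was seen for Selenot-202, a transcript annotated as retaining an intron. It held 25.0%, 18.6%, 32.5%, 38.6% and 26.1% of Selenot TPM in A3B livers 44, 49, 125, 137 and 153, but 0.811% in A3B liver 48 and 2.06% and 3.09% in the controls. In the 2 control pancreases its share averaged 0.409% ± 0.167 (SD), and in the 6 A3B pancreases 5.48% ± 2.45 (SD). Gene levels also hold transcripts not annotated as protein coding. Selenok-201, whose codon is shown above, averaged 5.29% to 7.01% of Selenok TPM across the groups of set 2. Selenok-203, annotated for nonsense-mediated decay, averaged 47.8% to 59.1%, and Selenok-202, a processed transcript, 35.6% to 45.15%. Selenof-203, also a processed transcript, averaged 28.1% to 48.6% of Selenof TPM.

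In control pancreases the order was different. Selenop led at 316 and 771 TPM. Gpx1 at 210 and 231 TPM, Gpx4 at 126 and 227 TPM and Selenof at 123 and 208 TPM overlapped each with the next. Selenok, Selenow and Selenos followed at 84.1 and 127, 98.7 and 111, and 70.3 and 91.5 TPM. Selenom, a thioredoxin-like protein of the endoplasmic reticulum, was at 38.4 and 33.8 TPM, Selenot at 10.8 and 21.6 TPM and Gpx3 at 6.22 and 21.6 TPM. The 2 control pancreases differed by more than 2-fold in Selenop and more than 3-fold in Gpx3, so that the control mean of both rests on unlike samples.

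The pancreas comparison turns on the scale used, and a few genes took up much of the control libraries. The 10 most abundant genes held 62.4% and 59.7% of the estimated counts in control pancreases and 12.1% to 20.6% in A3B pancreases. Summed acinar markers (20 genes) were at 443454 and 448452 TPM in controls and 85177 to 222345 TPM in A3B mice, and 17 of the 20 were called lower in the edgeR fit. Fibroblast markers (6 genes, 5 called higher) were at 39.6 and 172 TPM in controls and 963 to 1486 TPM in A3B pancreases, ductal markers (7 genes, 3 called higher) at 106 and 142 against 1329 to 3025 TPM, and macrophage markers (6 genes, 3 called higher) at 37.0 and 514 against 1127 to 3460 TPM. Erythroid markers (5 of 6 genes tested, all 5 called lower) were at 2113 and 2773 TPM in controls and 41.9 to 914 TPM in A3B pancreases. Endocrine markers (7 genes, 2 called lower with TMM) were at 3434 and 3509 TPM against 3758 to 13293 TPM. Hepatocyte markers (10 genes, none called) were at 49.9 and 70.8 TPM in controls and 113 to 978 TPM in A3B pancreases, and lung epithelial markers (6 genes, 1 called higher) at 1.18 and 4.27 against 34.0 to 114 TPM. No marker of these 8 lists was at 0 throughout a pancreas group. Their part in the results for the members was not tested. TMM factors were 0.21 and 0.443 in controls and 1.3 to 1.79 in A3B mice, so every log2 fold change below shifts with the scaling. The median over all genes was 0.09 with TMM, 2.29 when counts were scaled by library totals, and 1.61 with totals taken without the acinar markers.

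Selenos was the member that lay lower in A3B pancreases on every scale tried. It was at 70.3 and 91.5 TPM in the controls and at 51.5, 59.3, 67.1, 67.8, 69.1 and 52.0 TPM in A3B pancreases 44, 49, 53, 125, 137 and 153, so that all 6 lay below both controls. The log2 fold change of the counts was -2.73 ± 0.25 with TMM, -0.39 with library totals and -1.08 with totals taken without the acinar markers. As a share of the summed TPM of the 10 members, which no scaling of the library touches, Selenos stood at 6.49% and 4.96% in controls and at 1.15% to 1.68% in A3B pancreases. That sum, mostly Selenop and Gpx1 in A3B pancreases, was at 1083 and 1843 TPM in controls and 3089 to 5843 TPM in A3B pancreases. A lower share therefore holds the rise of the sum as well as any fall of the gene.

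Selenof was the other member that was lower in estimated counts under all 3 scalings, with log2 fold changes of -2.49 ± 0.29, -0.17 and -0.86. By TPM its groups overlapped, at 105 to 231 TPM (median 163) in A3B pancreases against 123 and 208 TPM. Its share of the summed members was 11.3% in both controls and 3.10% to 4.26% in A3B pancreases, where the sum was higher.

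Gpx3 lay on the other side under every scaling. It was at 199, 123, 334, 237, 214 and 111 TPM in A3B pancreases 44, 49, 53, 125, 137 and 153 against 6.22 and 21.6 TPM in controls, and the groups did not overlap. The log2 fold change was 1.85 ± 0.49 with TMM, 3.92 with totals and 3.24 without the acinar markers. Its share of the summed members was 0.574% and 1.17% in controls and 3.18% to 5.87% in A3B pancreases. Summed adipocyte markers (6 genes, none called, median log2 fold change -2.39 with TMM) overlapped here, unlike in liver. They were at 52.7 TPM in control 45, 655 TPM in control 168 and 139 to 1136 TPM in A3B pancreases. Their part in the result was not tested.

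For 5 of the members called lower with TMM the direction depended on the scale. Selenok, Selenot, Selenom, Selenow and Gpx4 had log2 fold changes of -1.01 ± 0.31, -1.03 ± 0.22, -1.14 ± 0.31, -0.90 ± 0.29 and -1.25 ± 0.28 with TMM, and of 1.29, 1.21, 1.29, 1.50 and 0.99 with library totals. By TPM all 5 were higher in every A3B pancreas than in both controls. Selenow, a small cytosolic thioredoxin-like protein, was at 198 to 376 TPM (median 296) against 98.7 and 111 TPM. Relative to the median of all genes the 5 lay below it on either scaling, between -1.35 and -0.99 with TMM and between -1.30 and -0.79 with totals. Subtracting the median removes most of the scaling, so the likeness of these ranges was fixed in advance and adds nothing. Without control pancreas 45 the TMM values of Selenom, Selenow and Selenok were -0.27, -0.27 and -0.65.

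Selenop and Gpx1 were the remaining members. Selenop was at 1152 to 2367 TPM (median 1601) in A3B pancreases against 316 and 771 TPM, and Gpx1 at 741 to 1520 TPM (median 1096) against 210 and 231 TPM, without overlap in either case. With TMM the log2 fold changes were -0.50 ± 0.37 and -0.08 ± 0.37, and with totals they also changed sign, to 1.67 and 2.30. With single samples left out, the TMM value of Gpx1 ran from -0.49 to 0.54. The share of Gpx1 in the summed members was 19.4% and 12.5% in controls and 23.6% to 28.1% in A3B pancreases, while the shares of Selenop overlapped.

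**Figure D2:**
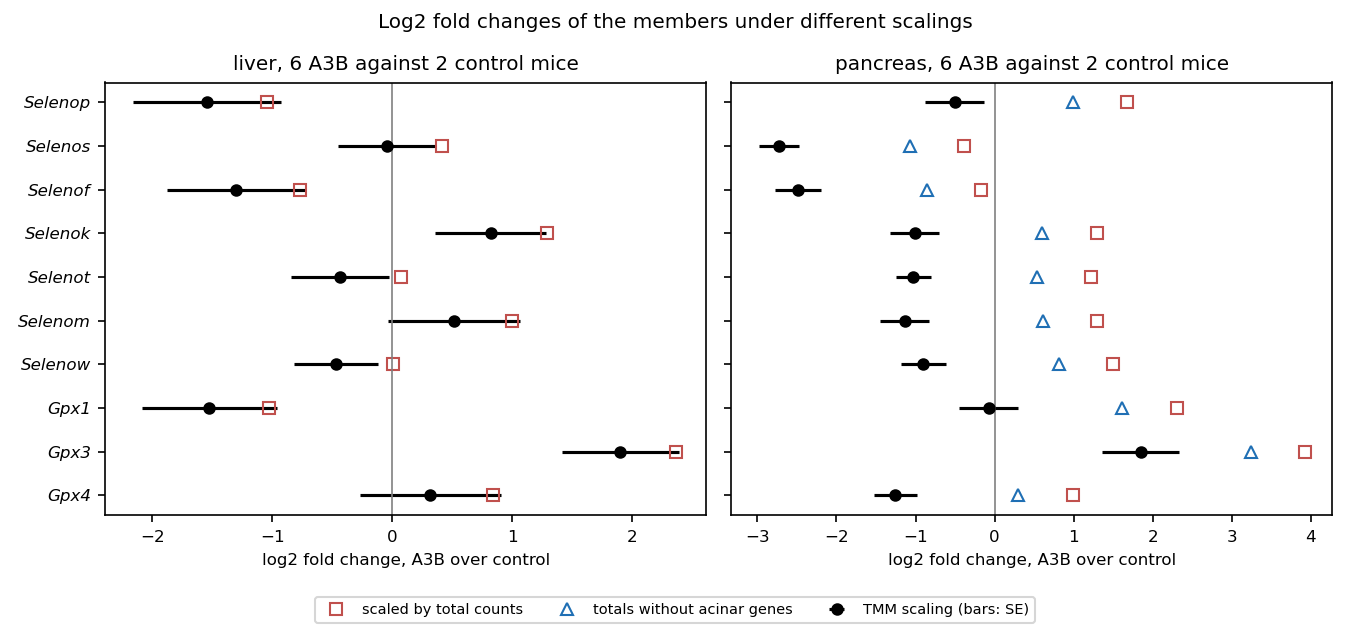
Log2 fold change of each member, A3B over control (x axis), in liver (left) and pancreas (right) of set 2, with filled circles and SE bars for TMM scaling, squares for library totals and, in the pancreas, triangles for totals without the acinar markers. In the pancreas Selenos and Selenof stay below 0 and Gpx3 above 0 under all 3 scalings, and the other 7 members change sides.

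In the edgeR fit over 19142 genes with TMM, 7 members were called lower, against 14.9% of all genes, and Gpx3 was called higher, against 17% of all genes. With DESeq2, 8 members were called in either direction, against 35.5% of the genes with an adjusted p. With library totals 8 members were called higher, against 70.4% of all genes, and none lower, against 1.1%. On the TPM scale 8 members were higher in all A3B pancreases and 1 was lower, against 70.8% and 1.07% of all genes. After TMM scaling 8 members were lower in all A3B pancreases and 1 was higher, against 18.9% and 25.1%. The median log2 fold change was -1.02 over the members and 0.09 over all genes with TMM, and 1.29 and 2.29 with totals. These are the contrasts that chose the members, so nothing is read from the counts. Without control pancreas 45, 2 members were called lower, against 8.75% of all genes in that fit, and none higher, against 10.2%.

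**Figure D3:**
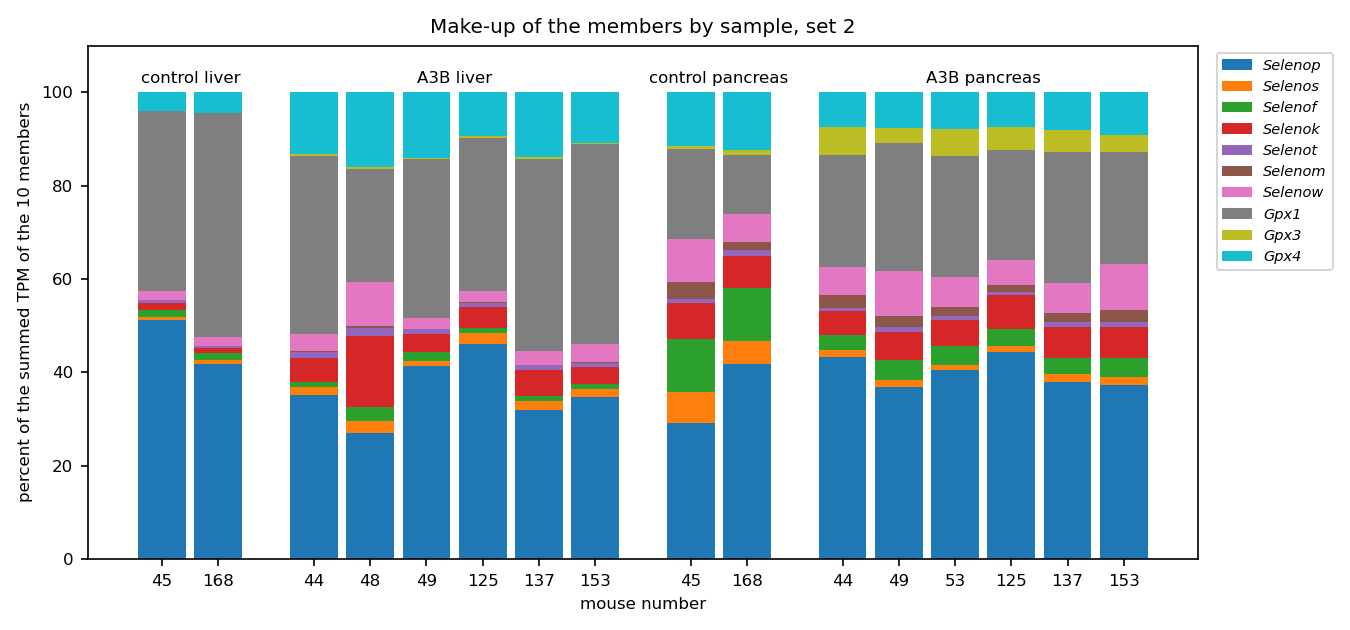
Percent of the summed TPM of the 10 members held by each of them (y axis, stacked bars from 0 to 100) in every liver and pancreas of set 2 (x axis, mouse number). Selenop and Gpx1 hold 89.7% and 89.6% in control livers and 51.3% to 78.7% in A3B livers, and Selenos and Selenof hold smaller shares in A3B pancreases than in control pancreases.

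The A3B difference in pancreas minus that in liver, fitted over all 16 samples, was -2.52 ± 0.53 for Selenos, -1.67 ± 0.58 for Selenok, -1.47 ± 0.56 for Selenom, -1.40 ± 0.68 for Gpx4 and -1.01 ± 0.74 for Selenof. It was 1.62 ± 0.77 for Gpx1 and 1.21 ± 0.86 for Selenop, and -0.42 ± 0.49, -0.26 ± 0.48 and 0.11 ± 0.64 for Selenot, Selenow and Gpx3. With library totals the value for Selenos was -0.81 and those for the other members were at or above 0. In this fit 5.02% of all genes were called lower in pancreas than in liver and 6.87% higher, and 1 member, Selenos, was called lower. The members were chosen on the values behind this difference, so nothing is read from that count.

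Differences between the tissues within a genotype come from the same samples of set 2 that chose the members, so they too are given as a description of the members, with no test. In control mice, 5 of 10 members were called higher in scaled counts in pancreas than in liver, against 20.4% of all 19927 genes, and 1 was called lower, against 19.6%, and nothing is read from these counts. Selenom had a log2 fold change of 5.29 ± 0.57, with 38.4 and 33.8 TPM in pancreas against 2.94 and 2.92 TPM in liver. Gpx3 followed at 3.65 ± 0.61, Selenof at 2.10 ± 0.67, Selenos at 1.93 ± 0.46 and Selenok at 1.62 ± 0.50. By TPM the tissues did not overlap for Selenom, Gpx3 and Selenos and did for Selenof and Selenok. On that scale 3 members were higher in both control pancreases than in both control livers and 5 were lower. Selenot, Selenow and Gpx4 were among the lower ones, and nothing is read from these counts either. Gpx1 was at -2.45 ± 0.70 and Selenop at -1.41 ± 0.76, and both were lower by TPM in the 2 control pancreases than in the 2 control livers. With library totals Selenom, Gpx3, Selenof, Selenos and Selenok were at 4.02, 2.72, 0.96, 0.76 and 0.48, and Gpx1 and Selenop at -3.65 and -2.43.

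In A3B mice 4 members were called higher in pancreas than in liver, against 30.4% of all genes, and 1 was called lower, against 26.2%, and again nothing is read from these counts. Selenom (3.82 ± 0.31) and Gpx3 (3.76 ± 0.36) had the largest log2 fold changes of the members and no overlap between the tissues by TPM. Selenof was at 1.09 ± 0.37 and Selenow at 0.76 ± 0.24, and Gpx4, the member called lower, at -0.996 ± 0.34. Selenos was at -0.59 ± 0.26 and Gpx1 at -0.83 ± 0.39. The tissues overlapped by TPM for each of these 5. With library totals Gpx4 was at -0.52 and was not called lower, Selenos was at -0.05 and Gpx1 at -0.32, whereas Selenom, Gpx3, Selenof and Selenow were at 4.31, 4.28, 1.57 and 1.30.

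Set 1 holds samples that the choice of members did not use. Its TPM were computed in another way, and levels differ from those of set 2 by gene. In control livers Selenok was at 847 to 1422 TPM, against 95.4 and 106 TPM in set 2. Selenof was at 729 to 1162 TPM there, against 113 and 125 TPM. Levels and their order are therefore compared only within set 1. In its livers, limma on log2(TPM + 1) over 11507 genes called 6.07% of all genes higher and 1.86% lower, and none of the 9 members tested. At an unadjusted p under 0.05 there were 2, Gpx1 and Gpx3, against 32.6% of all genes. Gpx1 was at 6424, 10335 and 9760 TPM in control livers 11, 91 and 92 and at 2865, 4053 and 4112 TPM in A3B livers 23, 28 and 70, so that all 3 A3B livers were below all controls. Its log2 fold change on the log2(TPM + 1) scale was -1.25 ± 0.32 (limma adjusted p = 0.055). Gpx3 was at 8.37, 7.58 and 8.54 TPM in controls and 22.8, 55.5 and 11.4 TPM in A3B livers, also without overlap (1.48 ± 0.53, limma adjusted p = 0.11). Adipocyte markers (6 genes, 2 tested, 1 called higher, Lep and Cfd at 0 in every liver) moved with it here too, at 25.2, 27.9 and 26.2 TPM in controls and 338, 742 and 142 TPM in A3B livers 23, 28 and 70. Their part in the result was not tested. Selenop was at 1978, 2577 and 2117 TPM in controls and 1136, 1516 and 1623 TPM in A3B livers, lower in all 3 (-0.65 ± 0.29, limma adjusted p = 0.17). Summed hepatocyte markers (10 genes, all tested, none called) were lower in all 3 A3B livers as well, at 9442, 6303 and 10420 TPM in livers 23, 28 and 70 against 10504, 11551 and 11594 TPM in controls 11, 91 and 92. Acinar markers (20 genes, 4 tested, 1 called higher and 1 lower, 10 at 0 in every control liver) were lower in all 3 too, at 28.8 to 41.0 TPM against 60.0 to 123 TPM. The part of either list in the Gpx1 and Selenop values was not tested. Without control liver 11 Gpx1 passed (limma adjusted p = 0.038), and without A3B liver 70 Gpx3 did (0.040). By TPM 2 of the 9 members were lower in all A3B livers and 1 was higher, against 10.3% and 28.5% of all genes, and the other 6 overlapped. Gpx4 is listed at 0 in all 12 samples of set 1.

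In the lungs of set 1, 6 of the 9 members tested were lower in A3B mice, against 20.8% of all 13651 genes, and none was higher, against 16.1%. Selenom was at 30.1, 26.8 and 34.3 TPM in control lungs 87, 88 and 91 and at 15.5, 19.6 and 16.5 TPM in A3B lungs 69, 70 and 74 (log2 fold change -0.79 ± 0.13, limma adjusted p = 0.0073). Selenof was at 1893, 1443 and 1734 TPM in controls and 959, 965 and 1121 TPM in A3B lungs (-0.73 ± 0.13, limma adjusted p = 0.0089). Selenow was at 98.0, 81.6 and 113 TPM and at 55.1, 59.6 and 59.4 TPM (-0.73 ± 0.13, limma adjusted p = 0.0087). In each of these the A3B lungs lay below every control lung. By TPM 7 of the 9 members were lower in all A3B lungs, against 30.6% of all genes, and none was higher in all, against 23.3%.

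Gpx1, Selenot and Selenos also fell in lung, by less. Selenos was at 72.4, 58.9 and 59.4 TPM in controls and 47.1, 45.6 and 48.7 TPM in A3B lungs. The log2 fold changes were -0.47 ± 0.11, -0.43 ± 0.11 and -0.42 ± 0.11, with limma adjusted p-values of 0.019, 0.025 and 0.024. Selenok (-0.36 ± 0.13, limma adjusted p = 0.073), Gpx3 (-0.17 ± 0.12, limma adjusted p = 0.30) and Selenop (-0.09 ± 0.11, limma adjusted p = 0.55) did not pass. Selenom, Selenof and Selenow passed whichever lung was left out. Selenos did not pass without control 87 or A3B lung 69 or 70, Selenot without these or control 91, and Gpx1 without any 1 of the A3B lungs (limma adjusted p = 0.052 to 0.085). Selenok passed without control 88 (limma adjusted p = 0.017). Summed lung epithelial markers (6 genes, 1 called lower) were at 19327 to 20589 TPM in controls and 18310 to 19923 TPM in A3B lungs, with no marker at 0 throughout either group. Macrophage markers (6 genes, 1 called higher and 1 lower) were at 1178 to 1276 TPM in controls and 930 to 962 TPM in A3B lungs. Erythroid markers (1 of 6 genes tested and called lower, the 4 globin genes listed at 0) were at 9.26 to 29.5 and 3.18 to 5.24 TPM. Both lists were lower in all A3B lungs, as 7 of the 9 members were. Acinar markers (20 genes, 5 tested, 2 called lower) were lower in all A3B lungs too, at 18.1 to 22.2 TPM against 24.7 to 30.5 TPM, and endocrine markers (7 genes, 1 tested and called higher) were higher in all, at 2.69 to 4.17 TPM against 1.11 to 1.91 TPM. The part of these markers in the result was not tested.

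**Figure D4:**
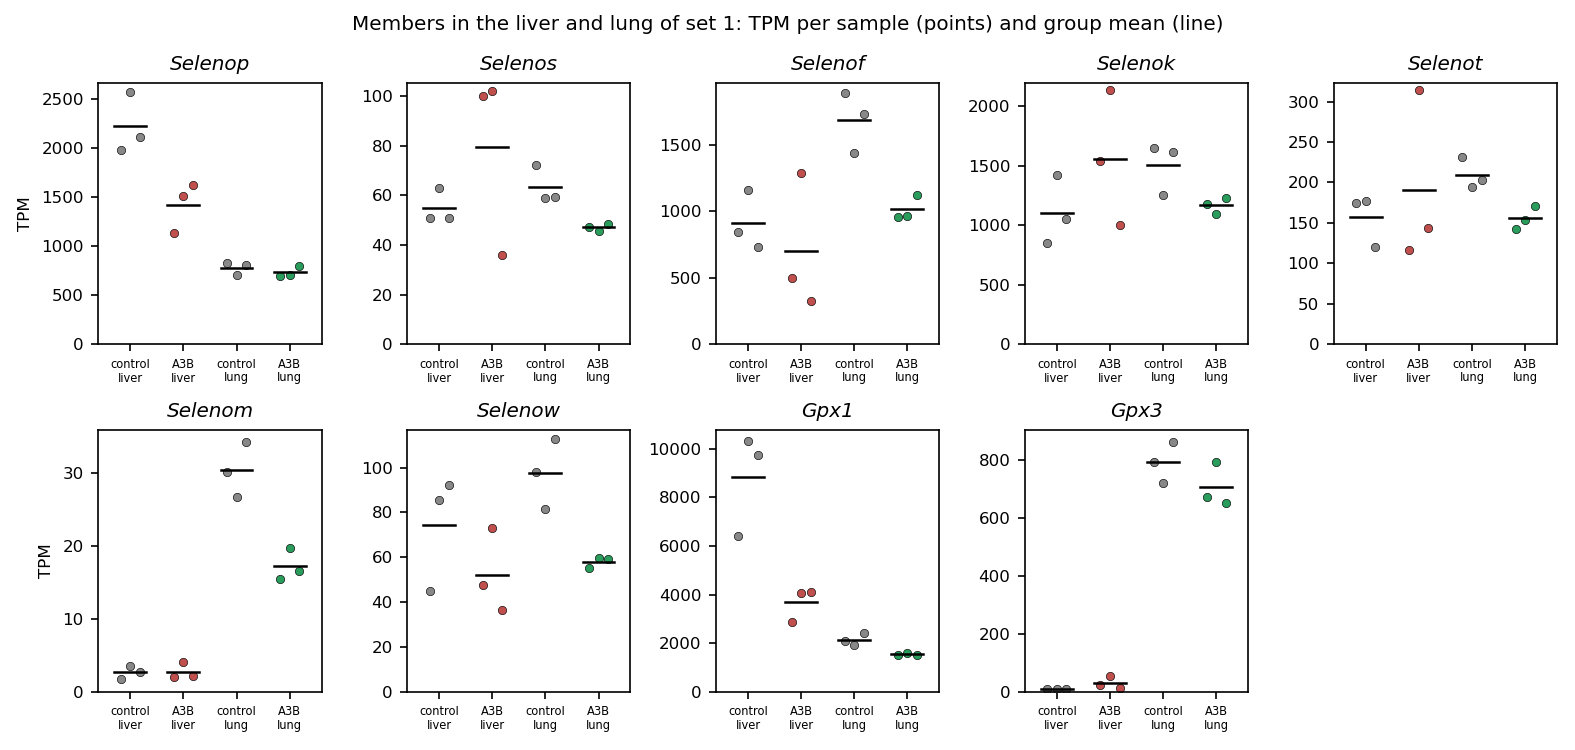
Level of 9 members in TPM (linear axis from 0) in every liver and lung of set 1, with points for mice and a line at the mean of 3 samples. Gpx1 and Selenop lie lower and Gpx3 higher in all A3B livers, and 7 members lie lower in all A3B lungs than in every control lung.

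Among the 14 other selenoprotein genes, Dio1 had the largest difference in liver. Dio1, the type 1 iodothyronine deiodinase that converts thyroxine to the active hormone, was at 143 and 127 TPM in control livers and at 1.10, 4.72, 0.800, 1.41, 1.10 and 1.88 TPM in A3B livers 44, 48, 49, 125, 137 and 153. All A3B livers were far below both controls, the log2 fold change was -6.65 ± 0.82 (edgeR adjusted p = 0.0057), and the edgeR adjusted p was at most 0.034 whichever sample was left out. The log2 fold change without livers 48 and 49 was -7.66. DESeq2 gave no adjusted p for it. In set 1 it was at 28.5, 59.1 and 48.3 TPM in control livers and at 0.277, 0.0688 and 1.90 TPM in A3B livers (log2 fold change -4.81 ± 0.47 on log2(TPM + 1), limma adjusted p = 0.011). Without control liver 91 or 92 it did not pass (limma adjusted p = 0.072 and 0.059).

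Msrb1, which reduces oxidised methionine in proteins, was the other gene that passed in both sets of livers. It was at 542 and 455 TPM in control livers of set 2 and 137 to 357 TPM (median 222) in A3B livers, all lower (-1.55 ± 0.33, edgeR adjusted p = 0.036). In set 1 it was at 135, 206 and 218 TPM against 61.8, 38.1 and 80.4 TPM (-1.65 ± 0.38, limma adjusted p = 0.044). Selenoi, the ethanolamine phosphotransferase, passed in liver of set 2 in estimated counts (-1.12 ± 0.26, edgeR adjusted p = 0.045), whereas its TPM, which is corrected for transcript length, was at 6.41 to 20.3 TPM in A3B livers and 13.4 and 11.3 TPM in controls and overlapped. Each of these calls was lost without some of the single samples. For Msrb1 in set 2 these were either control or A3B liver 44, 125 or 137 (edgeR adjusted p up to 0.23), and in set 1 control 91 or 92 or A3B liver 23 or 28 (limma adjusted p up to 0.21). For Selenoi they were either control or A3B liver 44, 125, 137 or 153 (edgeR adjusted p up to 0.29). Without livers 48 and 49 Msrb1 was at -1.55 and Selenoi at -1.34, and both passed (edgeR adjusted p = 0.021 and 0.0085). With library totals Msrb1 and Selenoi did not pass either (edgeR adjusted p = 0.069 and 0.22). In all, 3 of the 12 other selenoproteins tested in liver of set 2 were called lower and none higher, against 2.41% and 1.25% of all genes, with a median log2 fold change of -0.60 against 0.21 over all genes. Without livers 48 and 49, 4 were called lower (Dio1, Txnrd2, Msrb1 and Selenoi) and 1 higher (Gpx2), against 9.64% and 8.73%.

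**Figure D5:**
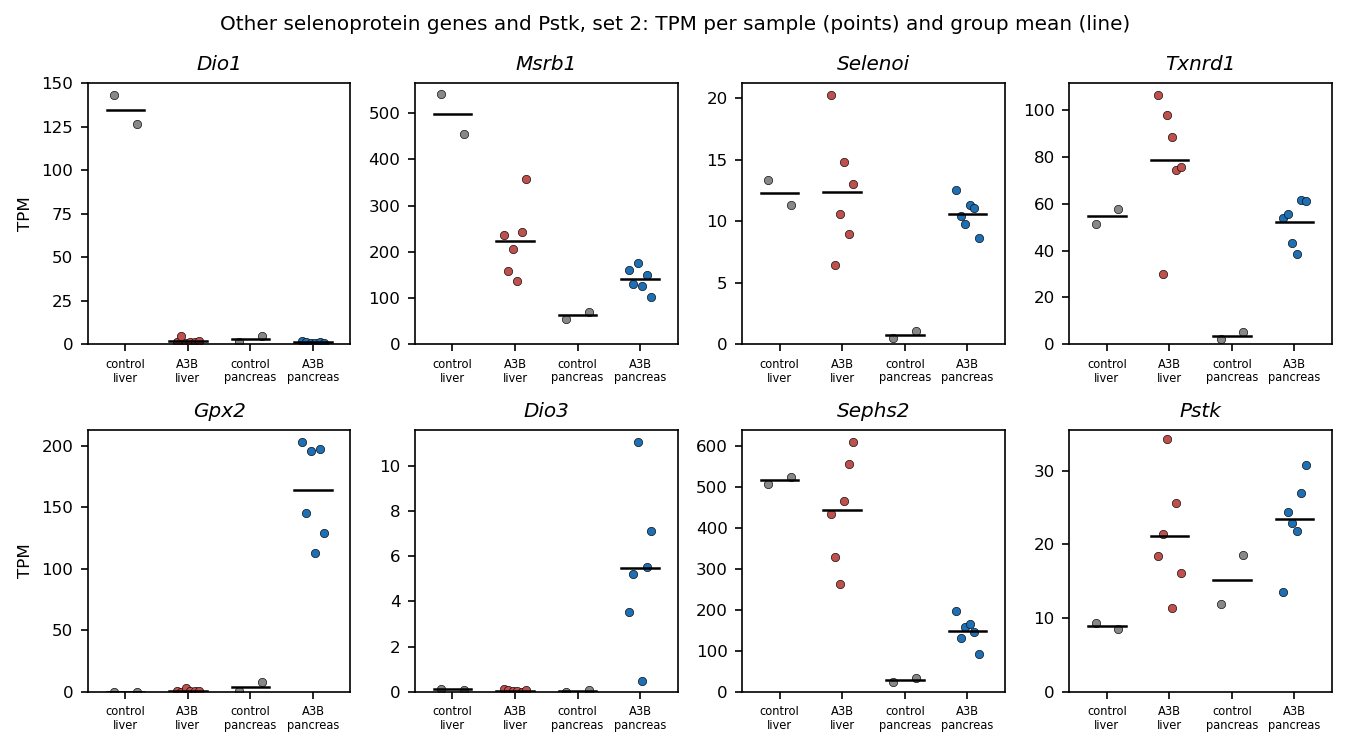
Level in TPM (linear axis from 0) of 7 other selenoprotein genes and of Pstk in every liver and pancreas of set 2, with points for mice and a line at the group mean. Dio1 lies near 0 in A3B livers, and Txnrd1, Gpx2 and Dio3 lie higher in all A3B pancreases than in both control pancreases.

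In the pancreas, 5 of 14 other selenoproteins were called higher and 5 lower with TMM, against 17% and 14.9% of all genes, with a median log2 fold change of 0.36 against 0.09 over all genes. By TPM 11 of the 14 were higher in all A3B pancreases and none was lower in all, against 70.8% and 1.07%. Gpx2, the gastrointestinal glutathione peroxidase, was at 0.579 and 7.48 TPM in control pancreases and 113 to 203 TPM (median 170) in A3B pancreases (3.49 ± 0.66, edgeR adjusted p = 0.0041). With single samples left out, its log2 fold change ran from 2.76 to 5.28. Txnrd1, the cytosolic thioredoxin reductase, was at 2.13 and 5.15 TPM against 38.8 to 61.6 TPM (1.68 ± 0.30, edgeR adjusted p = 0.0023). Dio3, which inactivates thyroid hormone, was at or near 0 in controls, at 0 and 0.0910 TPM, and at 0.492 to 11.0 TPM in A3B pancreases (5.02 ± 1.35, edgeR adjusted p = 0.021). These 3 were higher under the other scalings too. Dio1 was lower, at 1.37 and 4.57 TPM against 0.373 to 2.07 TPM with an overlap by TPM (-3.99 ± 0.45, edgeR adjusted p = 0.0003), and kept its direction with library totals (-1.89). The other genes called lower, Txnrd2, Msrb1, Selenoh and Selenoo, turned with library totals to 1.37, 1.17, 1.32 and 0.61. The A3B difference was larger in pancreas than in liver for Dio3 (6.82 ± 1.69), Selenoi (1.89 ± 0.32) and Txnrd1 (1.71 ± 0.44), with edgeR adjusted p-values of 0.019, 0.0032 and 0.022. That of Dio3 was lost without control liver 45 or control pancreas 45 (edgeR adjusted p = 0.084 and 0.090), that of Txnrd1 without any 1 of the 4 control samples (0.052 to 0.113), and that of Selenoi was kept whichever sample was left out. The size of the Dio3 values rests on control pancreas 168. Without it they were 13.9 for the A3B difference in pancreas minus that in liver and 12.4 for the A3B difference in the pancreas. The remaining control pancreas was at 0 TPM, so that neither fitted value is a bound. With the mouse as a block Txnrd1 did not pass there (edgeR adjusted p = 0.056). Of the pancreas calls, that for Dio3 was lost without control pancreas 45 (edgeR adjusted p = 0.10), and those for Gpx2, Txnrd1 and Dio1 held whichever sample was left out. In lung, Txnrd1 rose (0.59 ± 0.18, limma adjusted p = 0.042) and Selenoh and Txnrd2 fell (-0.59 ± 0.13 and -0.37 ± 0.11, limma adjusted p = 0.015 and 0.045). All 3 lung calls were lost without some single lungs (limma adjusted p up to 0.122, 0.050 and 0.137), A3B lung 70 among them for each.

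Of the genes for selenocysteine synthesis and insertion, none of 12 was called in liver of set 2 (edgeR, 2 at an unadjusted p under 0.05, 0 by DESeq2) and none of 11 in set 1 (limma, 2 at an unadjusted p under 0.05). By TPM, however, 6 of the 12 were higher in all A3B livers of set 2 than in both controls, against 24.3% of all genes, and none was lower in all, against 5.42%. Pstk, the kinase that acts on seryl-tRNA before selenocysteine is made, was at 11.4 to 34.3 TPM against 9.37 and 8.54 TPM, and Secisbp2 at 6.33 to 12.9 TPM against 5.65 and 5.73 TPM. In set 1, 3 of the 11 were higher in all A3B livers and 1, Scly, was lower, against 28.5% and 10.3%. In set 2, Trnau1ap was called higher and Sepsecs lower once livers 48 and 49 were left out, against 8.73% and 9.64% of all genes. Their median log2 fold change in liver of set 2 was 0.21, the same as over all genes to 2 decimals, and in the pancreas 0.0022 with TMM against 0.09 over all genes. In the pancreas of set 2, 1 rose and 3 fell with TMM, against 17% and 14.9% of all genes, whereas by TPM 11 of the 12 were higher in all A3B pancreases and none was lower in all, against 70.8% and 1.07%. Pstk was at 11.9 and 18.5 TPM in controls and 13.6 to 30.8 TPM in A3B pancreases, overlapping by TPM, and its log2 fold change of -1.79 ± 0.28 (edgeR adjusted p = 0.0012) turned to 0.53 with library totals. Sepsecs (-0.67 ± 0.20, edgeR adjusted p = 0.026) and Rpl30 (-1.17 ± 0.36, edgeR adjusted p = 0.030), a ribosomal protein that also binds the hairpin, turned likewise to 1.49 and 1.27. Ncl rose under every scaling (1.13 ± 0.27, edgeR adjusted p = 0.010). Without control pancreas 45 the calls for Sepsecs and Rpl30 were lost (Rpl30 also without A3B pancreas 44, 137 or 153), and without control pancreas 168 those for Sepsecs and Ncl (edgeR adjusted p up to 0.47), while Pstk passed whichever sample was left out. Secisbp2, Eefsec and Sephs2 did not pass in either tissue of set 2. In lung 3 of 11 rose and 2 fell, against 16.1% and 20.8% of all genes, among them Secisbp2l (1.30 ± 0.14, limma adjusted p = 0.0031), Pstk (-0.95 ± 0.16, limma adjusted p = 0.0078) and Sepsecs (0.45 ± 0.10, limma adjusted p = 0.016).

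In control mice several of these genes had lower scaled counts in pancreas than in liver, with 6 of 12 lower and 2 higher, against 19.6% and 20.4% of all genes. By TPM 10 of the 12 were lower in both control pancreases than in both control livers and 2 were higher. No share of all genes was computed for that scale. Sephs2, itself a selenoprotein and counted among those, was at 509 and 525 TPM in control livers and 23.3 and 32.6 TPM in control pancreases (-2.73 ± 0.53, edgeR adjusted p = 0.00082). Eefsec was at 20.2 and 17.7 TPM in liver and 0.390 and 0.458 TPM in pancreas (-3.88 ± 0.46, edgeR adjusted p = 1.4e-05). Sepsecs was lower as well (-2.04 ± 0.34, edgeR adjusted p = 0.00025) and Pstk higher (2.42 ± 0.48, edgeR adjusted p = 0.00099). The A3B difference was larger in pancreas than in liver for Eefsec (1.57 ± 0.48, edgeR adjusted p = 0.043) and smaller for Pstk (-2.50 ± 0.54, edgeR adjusted p = 0.010) and Trnau1ap (-1.51 ± 0.40, edgeR adjusted p = 0.025), the last of which turned with library totals, to 0.16. With the mouse as a block Eefsec did not pass (edgeR adjusted p = 0.069). These calls were lost without control liver 45 or control pancreas 45, among other samples (edgeR adjusted p up to 0.173, 0.080 and 0.142).

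Of the 3 selenoprotein P receptors, Lrp1 was the one called between A3B and control in the pancreas of set 2 and in the lung. None was called in liver of set 2 (edgeR, 1 at an unadjusted p under 0.05, 1 by DESeq2) or of set 1 (limma, 2 tested, 0 at an unadjusted p under 0.05). Lrp1 was called lower in liver of set 2 once livers 48 and 49 were left out. It was at 1.85 and 5.61 TPM in control pancreases and 51.0 to 89.1 TPM in A3B pancreases (2.17 ± 0.39, edgeR adjusted p = 0.0025). Its A3B difference in pancreas minus that in liver was 3.67 ± 0.53 (edgeR adjusted p = 0.0015). In lung its log2 fold change was 0.61 ± 0.17 (limma adjusted p = 0.035), and that call was lost without any 1 of 5 of the 6 lungs (limma adjusted p up to 0.105).

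Among 10 partners of the endoplasmic reticulum selenoproteins, none was called in liver of set 2 (edgeR, 10 tested, 2 at an unadjusted p under 0.05, 0 by DESeq2) or of set 1 (limma, 8 tested, 1 at an unadjusted p under 0.05). Leaving out livers 48 and 49, 3 (Derl2, Ubxn8 and Uggt1) were called lower in liver of set 2, against 9.64% of all genes. The median log2 fold change of the list there was -0.55. In the pancreas 1 rose and 4 fell with TMM, against 17% and 14.9% of all genes, whereas by TPM 8 of the 10 were higher in all A3B pancreases and 1 was lower in all, against 70.8% and 1.07%. Derl3, a channel component of the degradation complex that SELENOS joins, was at 35.2 and 37.6 TPM in controls and 1.94 to 6.94 TPM in A3B pancreases (-5.71 ± 0.43, edgeR adjusted p = 9.9e-05), and it stayed lower under every scaling. Vcp, the ATPase of that complex, was higher under every scaling (1.06 ± 0.36, edgeR adjusted p = 0.047), but its call was lost without control pancreas 168 or any of 5 A3B pancreases (edgeR adjusted p up to 0.23). Uggt2 (-1.87 ± 0.30, edgeR adjusted p = 0.0015), Derl2 (-1.09 ± 0.19, edgeR adjusted p = 0.0022) and Derl1 (-0.59 ± 0.20, edgeR adjusted p = 0.0496) were lower with TMM and turned to 0.38, 1.20 and 1.73 with library totals. In lung 1 of 9 partners tested was called lower and 0 higher, against 20.8% and 16.1% of all genes. It was Derl2 (-0.42, limma adjusted p = 0.025), which passed in 1 of 6 fits with a single lung left out. Of the genes with cysteine in place of selenocysteine, Msrb2 fell in liver of set 2 (1 of 5 tested, against 2.41% of all genes, -1.60 ± 0.34, edgeR adjusted p = 0.037). Without livers 48 and 49, Gpx6 and Msrb2 were called lower there, against 9.64%, with Gpx6 at only 0.3241 and 0.5045 TPM in controls. In lung Msrb2 (-0.71 ± 0.11, limma adjusted p = 0.0059) and Gpx7 (-1.20 ± 0.31, limma adjusted p = 0.028) fell, 2 of 3 tested, against 20.8%. In the pancreas Msrb2 (1 of 4 tested, against 14.9%) was lower with TMM (-1.03 ± 0.27, edgeR adjusted p = 0.017) and higher with totals (1.34). The Msrb2 call was lost in liver without either control or A3B liver 44, 137 or 153 (edgeR adjusted p up to 0.26) and in pancreas without control 45 (0.32), and without livers 48 and 49 Msrb2 was at -1.78 in liver. The Gpx7 call in lung was lost without control 87 or 91 or A3B lung 70 or 74 (limma adjusted p up to 0.081).

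The genes whose log2 CPM were most like those of Selenos over the 8 pancreases were Tmem219, Rpl36al, Serp1, Spcs3 and Smim14, with Pearson's r of 0.994 to 0.996 among 19142 genes. For Selenop over the 8 livers they were Rangap1, Lrrc4c, Vti1a, Gss and 2810025M15Rik, with r of 0.972 to 0.982 among 17376 genes. These correlations share libraries and scaling and are given as a description.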

How the data were processed

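RNA was measured by sequencing in 28 mouse samples. For the 16 samples of set 2 the authors deposited estimated counts and TPM per transcript from kallisto 0.46.1 against mouse transcripts (GRCm38, mm10), with no later scaling of the counts. For the 12 samples of set 1 the authors deposited TPM per gene, computed from reads aligned to mm10. Estimated counts depend on transcript length and TPM on all other transcripts of a library, so a large change in a few genes shifts the rest.

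Transcripts were matched to GENCODE M21 (116728 of 119414, 97.8%), and estimated counts and TPM were summed per gene symbol, the counts then rounded. Unmatched transcripts held 0.225% to 1.46% of the counts and stayed out. Set 2 was fitted with edgeR 4.0.16 (filterByExpr, TMM, robust quasi-likelihood test) in R 4.3.3, within each tissue and over all 16 samples for tissue contrasts. Set 1 was fitted with limma 3.58.1 (trend, robust) on log2(TPM + 1) for genes that averaged 1 TPM or more. P-values were adjusted by Benjamini-Hochberg over all genes tested, with a threshold of 0.05. Each fit was tested on simulated data. Alternatives were DESeq2 1.42.0, library totals, totals without acinar markers, no filter on low values, a pseudocount of 0.1, median centring, a block by mouse and leaving out each sample.

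Livers and pancreases of set 2 with the same mouse number come from the same animal (7 mice), which pairs the tissue contrasts. The samples of a group are separate mice.

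The members and lists were chosen with earlier results of these data known. Named were the 10 members, up to 4 genes of each list with the largest log2 fold change past the threshold, the main genes of selenocysteine synthesis, the 5 genes most correlated with Selenos and with Selenop, and transcripts with at least 5% of a member's TPM. Cell markers were given as summed TPM. Sequences came from GENCODE M21 transcripts.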

Additional observations from a re-analysis of the deposited data

Results flagged for a closer look

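In 42 groups of samples, each gene of the family in each group of 6 samples with a mean of at least 1 TPM, the highest and the lowest sample were compared with the rest by their gap as a share of the range, and chance picks out about 1 in 20 such groups. A3B liver 49 lay far above the other A3B livers for Selenof at 168.8 TPM, Selenot at 92.6 TPM, Gpx4 at 1311.5 TPM and Selenoh at 37.2 TPM. A3B liver 48 lay far above the others for Dio1, at 4.72 TPM, which was still below both controls. A3B pancreas 49 lay above the others for Txnrd2, at 5.38 TPM.

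The A3B difference in pancreas minus that in liver passed the edgeR interaction test for 12 genes of the lists other than the members. It was above 0 for Dio3 (6.82), Lrp1 (3.67), Vcp (1.94), Selenoi (1.89), Txnrd1 (1.71), Eefsec (1.57), Ubxn8 (1.36) and Zdhhc6 (1.08), and below 0 for Derl3 (-4.18), Pstk (-2.50), Uggt2 (-2.46) and Trnau1ap (-1.51), all on the log2 scale. With the mouse as a block, Txnrd1, Eefsec, Vcp and Ubxn8 had edgeR adjusted p-values of 0.056, 0.069, 0.066 and 0.083. With each of the 16 samples left out in turn, Selenoi and Lrp1 passed in all 16 fits, Uggt2 in 15 (edgeR adjusted p up to 0.075), Dio3 and Pstk in 14 (up to 0.0904 and 0.0804), Derl3 and Trnau1ap in 13 (0.0906 and 0.142), Txnrd1 and Vcp in 12 (0.113 and 0.109), Zdhhc6 in 9 (0.17), Eefsec in 4 (0.173) and Ubxn8 in 3 (0.161). The control samples were among those without which each of the 10 was lost. Dio3 ran from 6.02 to 13.9.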

How the results depend on the processing

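The scaling of the pancreas libraries was the choice that moved most values, and the cause of the differences between settings was not tested. In the pancreas, with library totals, the genes called between A3B and control went from 6100 to 13693, the members called higher from 1 to 8 and those called lower from 7 to 0. With totals taken without the acinar markers these were 11160, 3 and 2. The log2 fold changes that changed sign with totals included Selenop 1.67, Gpx1 2.30, Selenok 1.29, Selenot 1.21, Selenom 1.29, Selenow 1.50, Gpx4 0.985, Pstk 0.53, Rpl30 1.27, Sepsecs 1.49, Uggt2 0.38, Derl2 1.20 and Msrb2 1.34. Without the acinar markers they included Selenop 0.99, Gpx1 1.61, Selenok 0.61, Selenot 0.53, Selenom 0.61, Selenow 0.81, Gpx4 0.30, Rpl30 0.58, Sepsecs 0.82, Derl2 0.52 and Msrb2 0.66.

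In liver of set 2, 636 genes were called, against 2351 with DESeq2, 1119 with totals and 3087 without livers 48 and 49, the last chosen after seeing the data. The members called higher were 1 in each of these 3, and those called lower 5 without livers 48 and 49. Leaving out single samples gave 73 to 1596 genes, 0 to 1 members higher and 0 to 3 lower. In the pancreas it gave 3826 to 5822 genes, 0 to 1 members higher and 2 to 7 lower.

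Between the tissues in controls, totals gave 2 members higher and 2 lower, with signs changed for Selenot (-0.99), Selenow (-0.19) and Gpx4 (-0.66). The share of all genes called with totals is not given, so nothing is read from these counts. Leaving out samples gave 4921 to 6562 genes against 7957, 2 to 6 members higher and 0 to 1 lower, and Selenot ran from -0.12 to 0.26. In A3B mice, 3 members were lower with DESeq2 and 0 with totals, and totals changed the sign of Selenop (0.29), Selenok (0.48) and Selenot (0.15). Leaving out samples gave 2 to 4 members higher and 0 to 3 lower, with Selenop from -0.38 to 0.21 and Selenok from -0.21 to 0.099. The shares of all genes in these fits of A3B mice are not given either, so nothing is read from the member counts. For the difference of the A3B effect between tissues, 2369 genes were called, against 3753 with DESeq2, 8073 with totals and 546 to 3408 without single samples. Members called higher were 3 with totals, and members called lower were 2 with DESeq2, 0 with totals and 0 to 2 without single samples, and Trnau1ap turned to 0.16 with totals.

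With the mouse as a replicate block, which pairs the tissues, the difference between tissues was called for 1562 genes, Selenok in A3B mice was at 0.049, and no call changed other than those for Txnrd1, Eefsec, Vcp and Ubxn8. In set 1, 913 genes were called in liver, 54 with no filter and 1 to 1562 without single samples (1 without control 91), with 0 to 1 members higher and 0 to 1 lower. Selenot ran from -0.26 to 0.45 and Selenom from -0.20 to 0.19, and centring on the median turned Selenos (-0.072), Selenot (-0.29) and Selenom (-0.43). In lung 5029 genes were called, 2998 to 4579 without single samples, with 3 to 7 members lower. With 2 control mice per tissue in set 2, each control carries much of every A3B comparison, and the unknown depth of set 1 limits its low values.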
